A study of Mus musculus with 8 samples.

Results

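The 8 genes Sostdc1, Spp1, Tgfbr3l, Cd109, Stfa3, Tmod4, Palm3 and Fam196b are best known from kidney, bone, muscle, pituitary, skin or small T cell subsets, and stood lower in naive CD4+ T cell libraries titled E1KO than in those titled E1WT. These 8 of the 24421 gene symbols were selected on their fall in that same comparison, and all 8 were among the 13333 genes with enough reads to be tested. Their fall is therefore given as a description, without a test. In E1KO-titled libraries they kept 5.05% (Sostdc1) to 27.0% (Palm3) of the E1WT level. Of all genes tested 2.45% had a log2 fold of -1 or lower, and in 8.44% every E1KO library lay below every E1WT library. All 8 members meet both, and nothing is read from that, since the choice fixed it.

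The 8 libraries were made from naive CD4+ T cells of the spleen of C57BL/6 mice aged 6 to 8 weeks, male per the labels, and isolated with a Miltenyi kit. The study compares wild-type mice with Pcbp1fl/flCd4-Cre mice, in which the Cre recombinase under the Cd4 promoter removes the floxed gene in T cells. PCBP1 (hnRNP E1) is an RNA-binding protein that prefers C-rich sequence. Each title, E1KO and E1WT, has 4 libraries of 28264655 to 36738202 gene counts, and directions are given by title. The genotype field goes against the title in 8 of 8 samples: it reads Pcbp1+/+Cd4-Cre for E1KO libraries and Pcbp1fl/flCd4-Cre for E1WT libraries, so by that field both groups carry Cd4-Cre, while the extraction protocol calls the controls wild-type. Whether a library comes from 1 mouse or from several is not given, nor are litters or days, and p-values cover only the scatter among these libraries, which could be technical.

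Pcbp1 followed the titles, at 40.5 ± 1.57 against 219 ± 18.2 CPM (read counts scaled to the gene total of a library; mean ± SD, n = 4 each), a log2 fold of -2.49 ± 0.07 (SE; edgeR adjusted p = 2.57e-09). Xist, transcribed from the inactive X chromosome of female cells, stood at 406 ± 30.4 against 1.48 ± 1.06 CPM, and the Y-linked genes Ddx3y, Eif2s3y, Kdm5d and Uty at 49.3% to 53.0% of the E1WT level. Each of the 4 E1KO libraries thus holds female as well as male transcripts although the labels say male. Their Xist ran from 378 to 433 CPM and their Ddx3y from 52.7 to 59.1 CPM. How many mice gave each library was not tested. Title and sex cannot be told apart in these libraries. Reads that fell in no gene made up 15.4% to 17.4% of counts in E1KO and 19.1% to 22.4% in E1WT libraries, without overlap (two-sided exact permutation p = 0.0286, the smallest that 4 against 4 allows), and the part of either difference in the members' values was not tested. In the fit over all genes, edgeR called 23.3% of genes at an adjusted p under 0.05, 12.2% higher and 11.1% lower in E1KO.

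Sostdc1 and Spp1 are secreted: the first binds bone morphogenetic proteins (BMPs) and the Wnt coreceptors and dampens both pathways, the second (osteopontin) is a phosphoprotein of bone matrix and a cytokine that binds integrins and CD44. Tgfbr3l and Cd109 sit at the cell surface and bind ligands of the TGF-beta superfamily. Stfa3 belongs to the stefins, which block cysteine cathepsins inside cells, Tmod4 caps the pointed end of actin filaments in skeletal muscle, Palm3 is a lipid-anchored protein of the paralemmin family, and Fam196b (now Insyn2b) is a relative of a protein of inhibitory synapses. Among T cells, Sostdc1 has been described in a subset of follicular helper cells, Spp1 in activated and effector cells and Cd109 in activated cells.

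The members lie on 7 autosomes, so none is X- or Y-linked. Tgfbr3l and Palm3 are both on chromosome 8, far apart. RefSeq start sites on GRCm38.p6, with 250 bases before and 50 after the start, were matched for 5 members (Spp1 with 2 start sites, Stfa3, Tgfbr3l, Tmod4 and Palm3). The 3 windows below are shown because they were the only ones among the 6 to hold the letters TGTGGT, the core to which the RUNX factors of T cells bind, on either strand. They were picked after the matches were seen. Capitals mark each match to a searched motif, on either strand, and each window reads 5′ to 3′ on its gene's strand.

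The Spp1 window (first start site) covers chr5:104434861-104435160, plus strand.
Spp1: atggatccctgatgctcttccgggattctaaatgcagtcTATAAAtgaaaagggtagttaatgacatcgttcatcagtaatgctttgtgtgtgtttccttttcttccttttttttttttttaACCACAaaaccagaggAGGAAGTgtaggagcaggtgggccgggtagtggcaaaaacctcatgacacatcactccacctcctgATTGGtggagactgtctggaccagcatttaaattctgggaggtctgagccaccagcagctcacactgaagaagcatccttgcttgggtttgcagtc
The Stfa3 window covers chr16:36455343-36455642, minus strand.
Stfa3: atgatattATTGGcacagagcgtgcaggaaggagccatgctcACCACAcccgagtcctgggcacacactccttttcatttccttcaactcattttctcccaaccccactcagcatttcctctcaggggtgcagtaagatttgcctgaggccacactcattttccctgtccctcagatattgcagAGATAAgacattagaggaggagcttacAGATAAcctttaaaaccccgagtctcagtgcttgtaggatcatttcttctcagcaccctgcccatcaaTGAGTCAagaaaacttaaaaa
The Tgfbr3l window covers chr8:4247964-4248263, plus strand.
Tgfbr3l: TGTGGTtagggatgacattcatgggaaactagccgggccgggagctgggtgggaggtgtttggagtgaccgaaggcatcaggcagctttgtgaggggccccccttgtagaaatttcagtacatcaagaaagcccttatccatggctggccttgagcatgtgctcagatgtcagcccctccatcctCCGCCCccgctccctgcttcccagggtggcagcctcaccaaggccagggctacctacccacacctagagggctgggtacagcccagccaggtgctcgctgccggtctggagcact

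The RUNX core appears as ACCACA in the Spp1 and Stfa3 windows and as TGTGGT at the first base of the Tgfbr3l window. It is found in 16.8% of all 32851 RefSeq promoter windows of this length. The Spp1 window also holds the TATA box letters TATAAA (13.6% of all windows), at -211 bases from the start site. It has the ETS letters AGGAAGT (9.35%) and a CCAAT box read on the other strand (37.4%), which the Stfa3 window shares. Stfa3 has the GATA letters AGATAA at 2 places (11.2% of windows) and the AP-1 letters TGACTCA on the other strand (5.20%), and Tgfbr3l has a GC box, GGGCGG, on the other strand (35.7%). Of the windows not printed, Tmod4 holds the TCF/LEF letters CTTTGA (16%), Palm3 an E-box CAGCTG (16.3%) and 2 GC boxes, and the second Spp1 start site none of the 9 motifs. No motif was found in more than 3 of the 6 windows, and these matches are letters, not measured binding.

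**Figure D1:**
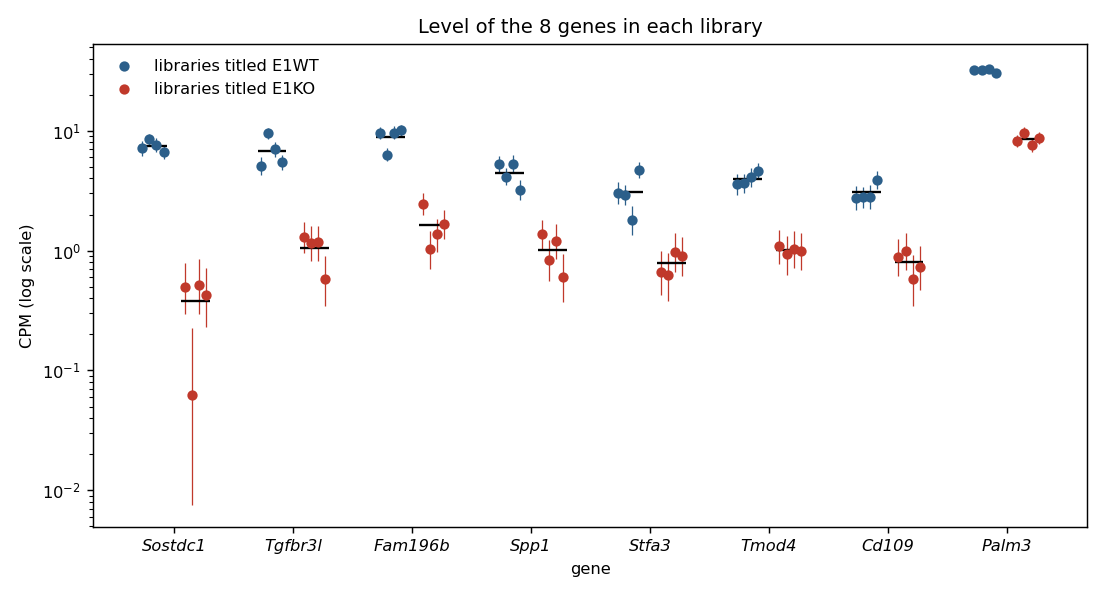
Members stand along the x axis, with their level in CPM (log scale) in the 4 E1KO and the 4 E1WT libraries as points. Thin bars are the 95% Poisson interval of each point, and black lines the mean of each title. For all 8 members the E1KO points lie below the E1WT points. The gap between the titles ran from 12.7-fold for Sostdc1 to 1.85-fold for Stfa3.

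Sostdc1 (chr12:36314139-36318452, plus strand, 2 exons) was close to 0 in E1KO libraries. It had 18, 2, 16 and 14 reads in E1KO libraries 1 to 4, or 0.501, 0.0624, 0.520 and 0.425 CPM. In E1WT libraries 1 to 4 it had 202, 311, 217 and 242 reads, or 7.15, 8.47, 7.66 and 6.62 CPM. Every E1KO library was far under every E1WT library, with the lowest E1WT value 12.7 times the highest E1KO value, and E1KO 2 stood under the other E1KO libraries. The means were 0.377 ± 0.214 and 7.47 ± 0.787 CPM (SD, n = 4 each), 19.8-fold lower, with a log2 fold of -4.35 ± 0.33 (SE). It ranked 3 among all falls, and 1 among genes whose mean log2 CPM was at least 1. The 2 reads of E1KO 2 allow 0.00755 to 0.225 CPM (95% Poisson interval, counting error only), and the log2 fold of Sostdc1 has the largest SE of the 8. In bulk RNA fewer cells of a type and less RNA per cell cannot be told apart, for this gene or any other here.

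Spp1 (chr5:104435118-104441050, plus strand, 8 exon blocks) was detected in all 8 libraries. Its values were 1.36, 0.842, 1.2 and 0.607 CPM in E1KO libraries 1 to 4 and 5.24, 4.14, 5.33 and 3.23 CPM in E1WT libraries 1 to 4. The groups did not overlap, and the fourth library of each title was its lowest. The means were 1.0 ± 0.343 and 4.48 ± 0.996 CPM, 4.47-fold lower (log2 fold -2.21 ± 0.27). Spp1 lies in the cluster of bone and tooth matrix genes on chromosome 5, and its relatives there, Mepe, Ibsp, Dmp1 and Dspp, had 0 reads in all 8 libraries.

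Tgfbr3l (chr8:4248214-4251423, plus strand) resembles the TGF-beta coreceptor betaglycan and is known from gonadotroph cells of the pituitary, where it takes part in inhibin B signalling. It stood at 1.31, 1.15, 1.17 and 0.577 CPM in E1KO libraries 1 to 4 and at 5.09, 9.55, 6.99 and 5.47 CPM in E1WT libraries 1 to 4. All E1WT libraries were above all E1KO libraries, with E1WT 2 the highest and E1KO 4 the lowest. The means were 1.05 ± 0.325 and 6.78 ± 2.02 CPM, 6.44-fold lower (log2 fold -2.74 ± 0.27). Its exons share 1530 bp with Gm49320, a read-through model that starts at Map2k7 and is not among the symbols of the files. Of its 75-base windows, the length of a read, 50.4% also occur in that model, and how the authors' counting treated such reads is not given in the sources used here.

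Cd109 (chr9:78615546-78716253, plus strand, 33 exon blocks) encodes a GPI-anchored protein of the alpha-2-macroglobulin family that acts as a coreceptor and inhibitor of TGF-beta. Its level was 0.891, 0.998, 0.585 and 0.728 CPM in E1KO libraries 1 to 4 and 2.76, 2.78, 2.82 and 3.91 CPM in E1WT libraries 1 to 4. There was no overlap, and E1WT 4 stood above the other E1WT libraries, which were close together. The means were 0.800 ± 0.182 and 3.07 ± 0.562 CPM, 3.83-fold lower (log2 fold -2.0 ± 0.25).

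Stfa3 (chr16:36450537-36455392, minus strand) had the smallest gap between the titles. It measured 0.668, 0.624, 0.974 and 0.910 CPM in E1KO libraries 1 to 4 and 3.04, 2.91, 1.80 and 4.70 CPM in E1WT libraries 1 to 4. The lowest E1WT library, E1WT 3, was 1.85 times the highest E1KO library, E1KO 3, and E1WT libraries spread widely. The means were 0.794 ± 0.174 and 3.11 ± 1.2 CPM, 3.92-fold lower (log2 fold -2.04 ± 0.31). The stefin A genes of chromosome 16 are close copies of one another. Reads that align to several places are not counted for any of these genes. Of the 338 windows of read length in the longest Stfa3 transcript, 0 were shared with another gene. Beyond this, a loss of Stfa3 reads was not tested. Such windows are not given for its relatives, so the levels of the relatives are uncertain. Stfa1 had 0 reads, Stfa2 had 0.0546 ± 0.0560 and 0.165 ± 0.174 CPM, and BC100530 had 1.3 ± 0.800 and 2.75 ± 2.08 CPM, with overlapping libraries (log2 fold -1.16 ± 0.58, edgeR adjusted p = 0.18).

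Tmod4 (chr3:95124476-95129209, plus strand, 11 exon blocks) had the tightest E1KO values of the 8. They were 1.09, 0.936, 1.04 and 1.0 CPM in libraries 1 to 4, against 3.57, 3.65, 4.09 and 4.65 CPM in E1WT libraries 1 to 4. The groups lay far apart relative to their spread. The means were 1.02 ± 0.0635 and 3.99 ± 0.495 CPM, 3.93-fold lower (log2 fold -2.03 ± 0.19).

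Palm3 (chr8:84021471-84030295, plus strand, 6 exon blocks) drew the most reads of the 8 and was the most even between E1WT libraries. It stood at 8.24, 9.67, 7.66 and 8.74 CPM in E1KO libraries 1 to 4 and at 32.1, 32.0, 32.6 and 30.4 CPM in E1WT libraries 1 to 4. Each title formed a narrow band and the bands were far apart. The means were 8.58 ± 0.849 and 31.8 ± 0.954 CPM, 3.70-fold lower, with the smallest error of the 8 (log2 fold -1.95 ± 0.09).

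Fam196b (chr11:34314822-34422640, plus strand, 4 exon blocks) lies wholly inside Dock2, a guanine nucleotide exchange factor that lymphocytes need to migrate. It stood at 2.45, 1.03, 1.36 and 1.67 CPM in E1KO libraries 1 to 4 and at 9.62, 6.34, 9.67 and 10.1 CPM in E1WT libraries 1 to 4. The groups did not overlap, with E1KO 1 the highest of its title and E1WT 2 the lowest of its own. The means were 1.63 ± 0.607 and 8.94 ± 1.75 CPM, 5.49-fold lower (log2 fold -2.51 ± 0.25).

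**Figure D2:**
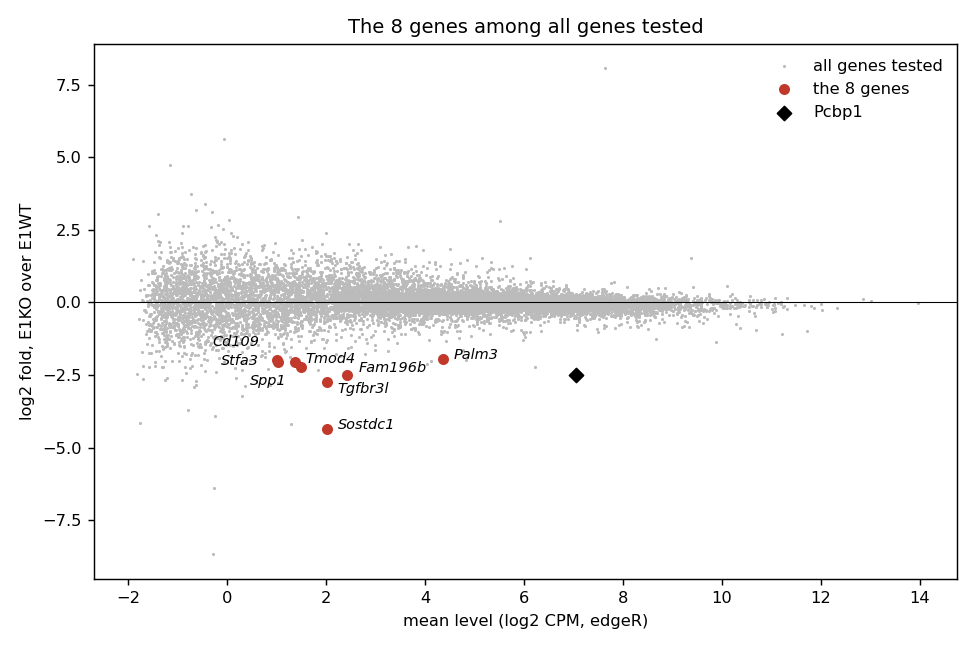
Points are all 13333 tested genes by mean log2 CPM (x axis) and by log2 fold of E1KO over E1WT (y axis), with the 8 members and Pcbp1 marked. The members sit low on both axes, between -1.95 (Palm3) and -4.35 (Sostdc1) on the y axis.

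By level, the members were in the lower part of the genes tested. On mean CPM over 8 libraries they ranged from percentile 17.8 (Cd109) to percentile 47.9 (Palm3) of the 13333. Ordered by fall, they ranked from place 3 (Sostdc1) to place 56 (Palm3). Among genes whose mean log2 CPM was at least 1 they took places 1, 4, 5, 9, 11, 12, 14 and 16, so genes that are no members lie between them.

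Per kilobase of exon, which allows genes to be compared, the E1WT order differed from the order of raw counts. Palm3 led at 8.79 ± 0.264 CPM per kb, then came Stfa3 at 7.56 ± 2.91, whose exons are short, and Sostdc1 at 4.19 ± 0.442. Spp1 (2.72 ± 0.605), Tmod4 (2.32 ± 0.288), Tgfbr3l (2.31 ± 0.691) and Fam196b (1.67 ± 0.326) followed, and Cd109, with the longest exons, closed the order at 0.444 ± 0.0815 CPM per kb. Neighbours in this order overlapped in their libraries, except for the steps from Sostdc1 to Spp1 and from Fam196b to Cd109. In E1KO libraries Palm3 (2.37 ± 0.235 CPM per kb) and Stfa3 (1.93 ± 0.422) again came first, while Sostdc1 (0.212 ± 0.120) moved from the third to the seventh place, with Cd109 (0.116 ± 0.0263) under it.

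Summed over the 8 members, E1KO libraries held 447 to 593 reads, or 14.5 to 16.5 CPM, and E1WT libraries 1937 to 2564 reads, or 68.5 to 71.0 CPM. The sums varied less within a title than most of the single genes did. Palm3, with means of 8.58 CPM in E1KO and 31.8 CPM in E1WT, weighs most in them. Whether the spread between libraries exceeded counting error depended on the member and on the title. For Tgfbr3l the coefficient of variation was 29.9% in E1WT, where counting alone gives 6.80%, and for Stfa3 it was 38.4% against 10%. For Palm3 in E1WT it was 3.0% against 3.14%, and for Tmod4 in E1KO 6.26% against 17.3%, at or under the counting error. In the other title both exceeded it: Palm3 in E1KO had 9.90% against 5.96% and Tmod4 in E1WT 12.4% against 8.86%. Sostdc1 in E1KO varied by 56.7%, with 28.4% from counting.

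**Figure D3:**
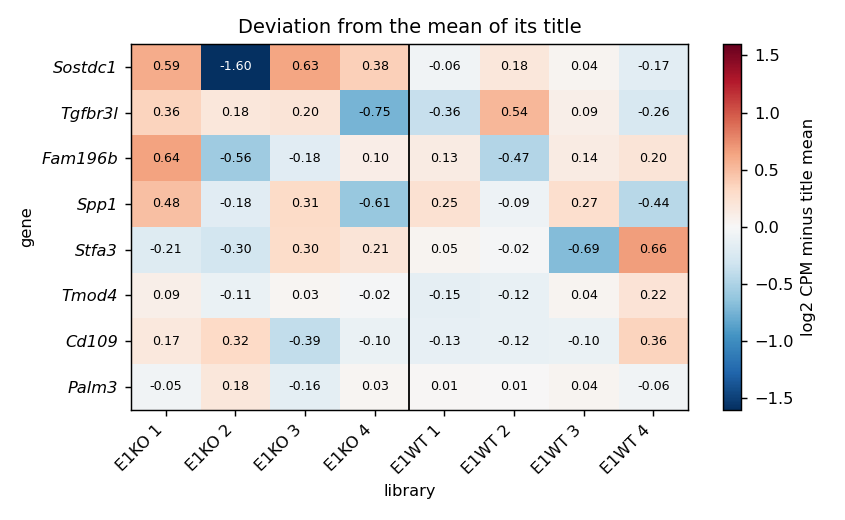
Each cell is the log2 CPM of 1 member in 1 library minus the mean of that library's title (prior count 2), with members as rows and libraries as columns. The lowest cell is Sostdc1 in E1KO 2 (-1.6), and no E1WT column is on 1 side for all members.

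Averaged over the 8 members, E1KO 1 lay 0.26 above and E1KO 2 lay at -0.26 from the mean of their title on the log2 scale, and the 4 E1WT libraries lay between -0.03 and 0.07. In E1KO 1, 6 of 8 members were above the title mean, and in E1KO 2, 3 of 8 were. E1WT 4 was the highest E1WT library for 4 members (Fam196b, Stfa3, Tmod4 and Cd109) and the lowest for 3 (Sostdc1, Spp1 and Palm3).

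Genes with the most similar profile were found by the root mean square difference of centred log2 CPM over the 8 libraries, among 12391 candidates. Since a profile is mostly the step between the titles, this names genes with a fall of like size. Palm3 was closest to Hspa1b, an inducible heat shock protein (0.145), and to Il21, a cytokine of follicular helper cells (0.153). Il21 was also nearest to Cd109 (0.194), followed by Kcnq1ot1, a long noncoding RNA of an imprinted region (0.234). Pmel, a melanosome protein, was nearest to Tmod4 (0.192), Spp1 (0.266) and Fam196b (0.397). The second for Tmod4 (0.234) and Spp1 (0.345) was H2-Q5, a class Ib MHC gene, and for Fam196b its relative H2-Q10 (0.411).

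For Tgfbr3l the nearest profile was that of Pcbp1 itself (0.402), then H2-Q5 (0.433), and for Stfa3 it was that of Zfp750, a factor of keratinocyte differentiation (0.315), then Ccdc154 (0.385). Sostdc1 had no close match: the nearest, Capn11, a calpain known from testis, differed by 0.633 and the second, C1qb, a complement subunit of macrophages, by 1.03. Both stood under 2 CPM, at 0.0139 ± 0.0278 against 1.53 ± 0.218 CPM for Capn11 and at 0.0232 ± 0.0308 against 0.452 ± 0.128 CPM for C1qb. Reads of H2-Q5, H2-Q10 and Hspa1b can be shared with near-identical relatives, so their levels are uncertain.

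PCBP1 prefers runs of C, and the letters CCCC occurred 0 times per kb in the longest transcripts of Stfa3 and Tmod4, 0.664 in Spp1, 3.24 in Cd109, 5.05 in Sostdc1, 5.59 in Fam196b, 5.71 in Palm3 and 12.6 in Tgfbr3l. Their median was 4.15 per kb, beside 4.26 over 13250 tested genes. The median GC content was 46.7% beside 49.8%, and the median length 2116.5 beside 3288 bases. Tgfbr3l was at percentile 95.6 of all genes for CCCC, and 50.4% of its windows belong to the read-through model too. These are descriptions of letters and no measure of binding.

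**Figure D4:**
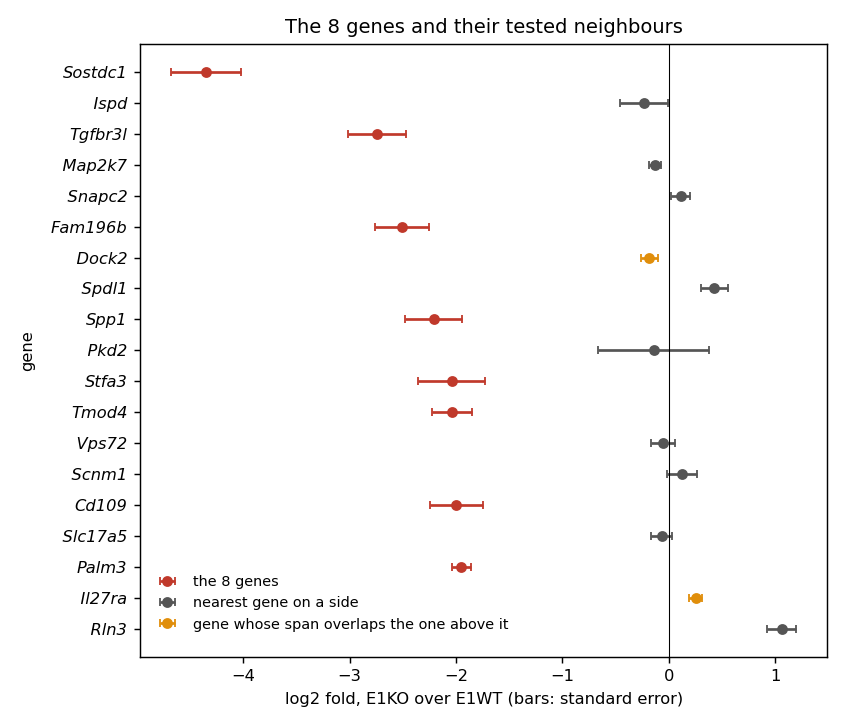
Points are the log2 fold of E1KO over E1WT with its standard error. Members are red, tested genes that overlap a member orange, and tested genes nearest to a member grey. Every member lies at -1.95 or lower, and the 11 neighbours lie between -0.23 and 1.06.

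None of the genes next to a member was called lower over all 8 libraries. Of the 11 tested genes that overlap a member or are nearest to it, edgeR called 0 lower and 3 higher, beside 11.1% and 12.2% of all genes tested. At an unadjusted p under 0.05 there were 2 lower, and DESeq2 called 0 lower. Dock2, on the strand opposite to Fam196b with no shared exon, was at 870 ± 55.7 and 947 ± 88.7 CPM (log2 fold -0.19 ± 0.08, edgeR adjusted p = 0.12), and passed as lower without E1KO 1 (adjusted p = 0.049) or without E1WT 2 (0.032). The counting's strand setting is not given in the sources used here, and Dock2 drew far more reads than Fam196b. Map2k7, which ends 316 bp before Tgfbr3l, had a log2 fold of -0.13 ± 0.06 (edgeR adjusted p = 0.12) and passed without E1WT 4 (0.047).

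Both tested genes at the end of Palm3 rose. Il27ra, a cytokine receptor chain whose end overlaps the end of Palm3 by 2 bp on the other strand, rose from 279 ± 16.3 to 347 ± 26.5 CPM (log2 fold 0.25 ± 0.06, edgeR adjusted p = 0.013). Rln3, a relaxin family peptide, rose from 4.14 ± 0.314 to 9.01 ± 1.40 CPM (1.06 ± 0.14, adjusted p = 0.00025). Spdl1, a mitotic spindle protein beside Fam196b, rose by 0.43 ± 0.13 (edgeR adjusted p = 0.032), but the call ended when E1KO 2, 3 or 4, or E1WT 1, 2, 3 or 4 was left out (0.053 to 0.083). Pkd2 beside Spp1, Ispd beside Sostdc1, Snapc2 beside Tgfbr3l, Vps72 and Scnm1 beside Tmod4, and Slc17a5 beside Cd109 did not pass (log2 folds of -0.23 to 0.12). Lrrc72, Mepe, Casr and Gm10635 had 0 reads.

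Relatives and partners of the members, in 9 lists of 124 tested genes in all, were called higher in 23 and lower in 13 cases, or 29.0%, beside 23.3% of all genes. Their median log2 fold was -0.04, beside 0.01 over all genes tested. The members' own log2 folds ran from -4.35 to -1.95.

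Of the 11 tested genes in a list of BMP and Wnt antagonists, the group to which Sostdc1 belongs, and related surface receptors, 3 rose and 2 fell (median log2 fold -0.00038). Kremen2, a receptor for Dickkopf proteins, rose from 2.23 ± 0.502 to 6.23 ± 0.410 CPM (1.42 ± 0.17, edgeR adjusted p = 0.00016), and Rgmb, a BMP coreceptor and no antagonist, rose by 0.36 ± 0.08 (0.011). Dkkl1 rose by 1.15 ± 0.30 (0.018, and 0.056 without E1KO 3). Kremen1 fell by 0.30 ± 0.07 (edgeR adjusted p = 0.013), with overlapping libraries. Sfrp2, a secreted Wnt inhibitor named after its value was seen, fell by 1.06 ± 0.33 (0.039), a call that ended when E1KO 1, 3 or 4, or E1WT 1, 3 or 4 was left out (adjusted p in edgeR: 0.057 to 0.12). Sost, the closest relative of Sostdc1, had 0 reads.

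Of 18 tested BMP ligands, receptors, SMADs and targets, 1 rose and 3 fell in edgeR (median -0.20), with 3 higher and 7 lower at an unadjusted p under 0.05 and 2 higher and 5 lower in DESeq2. Bmp7 fell from 13.4 ± 1.04 to 8.85 ± 0.776 CPM (-0.66 ± 0.10, edgeR adjusted p = 0.00084) and the receptor Bmpr1a from 2.65 ± 0.608 to 1.45 ± 0.0896 CPM (-0.93 ± 0.22, 0.010). The calls of Smad5, which fell by 0.19 ± 0.06, and of Bmp2, which rose by 1.74 ± 0.52 (edgeR adjusted p = 0.045 and 0.032), were not stable. The first ended when E1KO 2, 3 or 4, or E1WT 1, 2, 3 or 4 was left out (adjusted p = 0.057 to 0.10), the second when E1KO 1, 2 or 4, or E1WT 1, 2 or 3 was left out (0.053 to 0.099). Without E1WT 4 a second gene of the list rose, the receptor Bmpr2 (0.43, edgeR adjusted p = 0.028).

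Among 26 Wnt ligands, receptors and targets 6 rose and 5 fell (median -0.08). The ligand Wnt10a rose by 1.14 ± 0.21 (edgeR adjusted p = 0.0027) and the receptors Lrp5 and Ryk by 0.54 ± 0.09 and 0.63 ± 0.14 (0.0016 and 0.0061). Tcf7, the Wnt-linked transcription factor of naive T cells, fell from 1763 ± 23.1 to 1421 ± 15.8 CPM (-0.37 ± 0.05, 0.00021). The other 4 that fell, named after their values were seen, were Axin2, Rnf43 and Znrf3, feedback inhibitors induced by Wnt (-0.24 to -0.52), and Wnt5b (-0.90 ± 0.29, edgeR adjusted p = 0.043). The call of Wnt5b ended when E1KO 1, 2, 3 or 4, or E1WT 1, 2 or 3 was left out (0.052 to 0.13).

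For Tgfbr3l and Cd109 the list of TGF-beta receptors, coreceptors and activators had 4 of 23 higher and 3 lower (median -0.10). The coreceptor Tgfbr3 (betaglycan), which Tgfbr3l resembles, fell from 158 ± 8.94 to 125 ± 5.76 CPM (-0.40 ± 0.06, edgeR adjusted p = 0.00072). Beside it stands the log2 fold of -2.74 of Tgfbr3l. The coreceptor Eng rose from 5.82 ± 0.845 to 13.6 ± 1.73 CPM (1.16 ± 0.13, 0.00012), and the latent TGF-beta binding protein Ltbp1 rose by 1.66 ± 0.32 (0.0034). Acvr1b, a type I activin receptor, fell by 0.27 ± 0.05 (edgeR adjusted p = 0.0028). Tgfb1 and Acvrl1 (0.22 and 0.24) and Itgb8 (-0.60 ± 0.20, 0.048) made up the rest, named after their values were seen, and the call of Itgb8 ended when E1KO 2, 3 or 4, or E1WT 1, 3 or 4 was left out (adjusted p in edgeR: 0.064 to 0.13). Without E1WT 2 the list had 5 lower, with Ski and Smad2 added (edgeR adjusted p = 0.037 and 0.045). Among 4 tested genes in a list of alpha-2-macroglobulin relatives, the family of Cd109, and the receptor Lrp1, which binds alpha-2-macroglobulin and is not of that family, edgeR called 0 (1 higher and 1 lower at an unadjusted p under 0.05, and 0 in DESeq2). A2m had 0 reads, and the 2 with the smallest p were Lrp1 (0.54 ± 0.21, edgeR adjusted p = 0.091, and 0.037 without E1KO 3) and, in the family, C4a (-0.55 ± 0.25, adjusted p = 0.13). The relative C4b was called lower without E1KO 1 (edgeR adjusted p = 0.044).

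Osteopontin receptors, relatives and proteases had 3 of 10 higher and 0 lower in edgeR (median -0.04), with 2 lower at an unadjusted p under 0.05 and 1 lower in DESeq2. The integrin chain Itgb1 was that 1, and edgeR called it lower without E1KO 1 or E1WT 2 (adjusted p = 0.029 and 0.045, with Itga4 beside it in the second). Cd44, a receptor for Spp1 named after its value was seen, was at 131 ± 10.4 and 131 ± 16.4 CPM. The integrin chain Itga5 rose from 9.65 ± 0.658 to 17.8 ± 0.265 CPM (0.82 ± 0.08, edgeR adjusted p = 5.85e-05) and the prothrombinase Fgl2 by 0.64 ± 0.08 (0.00016). Itga9, an integrin chain that binds osteopontin, rose by 0.53 ± 0.15 (0.027), but not when E1KO 1 or 2, or E1WT 1 or 2 was left out (adjusted p in edgeR: 0.051 to 0.084).

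Of 19 stefins, cystatins and cathepsins, 4 rose and 0 fell in edgeR (median 0.06), with 1 lower at an unadjusted p under 0.05 and 0 lower in DESeq2. They were the cathepsins Ctsw (0.76 ± 0.10, edgeR adjusted p = 0.00036), Ctsz (0.38 ± 0.06, 0.0013) and Ctsh (0.51 ± 0.16, 0.043) and the secreted inhibitor Cst3 (0.50 ± 0.10, 0.0036). The call of Ctsh ended when E1KO 2, 3 or 4, or E1WT 1, 2 or 4 was left out (adjusted p in edgeR: 0.078 to 0.12). No cathepsin inhibitor of this list was called lower beside Stfa3, but its stefin A relatives had few reads. Csta1 and BC100530 were at 46.6% and 47.5% of the E1WT level, with overlapping libraries (edgeR adjusted p = 0.33 and 0.18). Stfa2 and BC117090, at 33.1% and 53.5%, were too low to be tested, and Stfa2l1 had reads in E1KO only. Markers of monocytes and macrophages, cells rich in cathepsins, summed to 117 to 134 CPM in E1KO and 56.7 to 66.4 CPM in E1WT libraries, with 6 of 12 higher and 1 lower and none of the 14 at 0, and their part in these rises was not tested.

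None of the other tropomodulins was called lower beside Tmod4. Tmod3, the widely expressed form, was at 219 ± 11.8 and 194 ± 7.34 CPM (0.11 ± 0.06, edgeR adjusted p = 0.19), Tmod1 at 0.321 ± 0.127 and 0.636 ± 0.330 CPM (-1.03 ± 0.47, edgeR adjusted p = 0.14), and Tmod2 at 0.857 ± 0.0883 and 0.543 ± 0.293 CPM, none of them called and all named after their values were seen. Of 12 genes in that list 1 rose and 0 fell in edgeR (median 0.09), with 2 higher and 0 lower both at an unadjusted p under 0.05 and in DESeq2. The tropomyosin Tpm2 was called lower without E1KO 1 (-1.86, edgeR adjusted p = 0.015), with the replicate number as a block (0.047) and without both E1KO 1 and E1WT 4 (0.0090). The 1 that rose was Tpm4, a tropomyosin (0.18 ± 0.05, edgeR adjusted p = 0.025), whose call ended when E1KO 2, 3 or 4, or E1WT 1 or 3 was left out (0.054 to 0.089). Palm, the founding paralemmin, rose from 3.97 ± 0.387 to 7.57 ± 0.879 CPM (0.86 ± 0.13, adjusted p = 0.00084), opposite to Palm3. It was the 1 gene tested among the relatives of Palm3 and Fam196b.

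**Figure D5:**
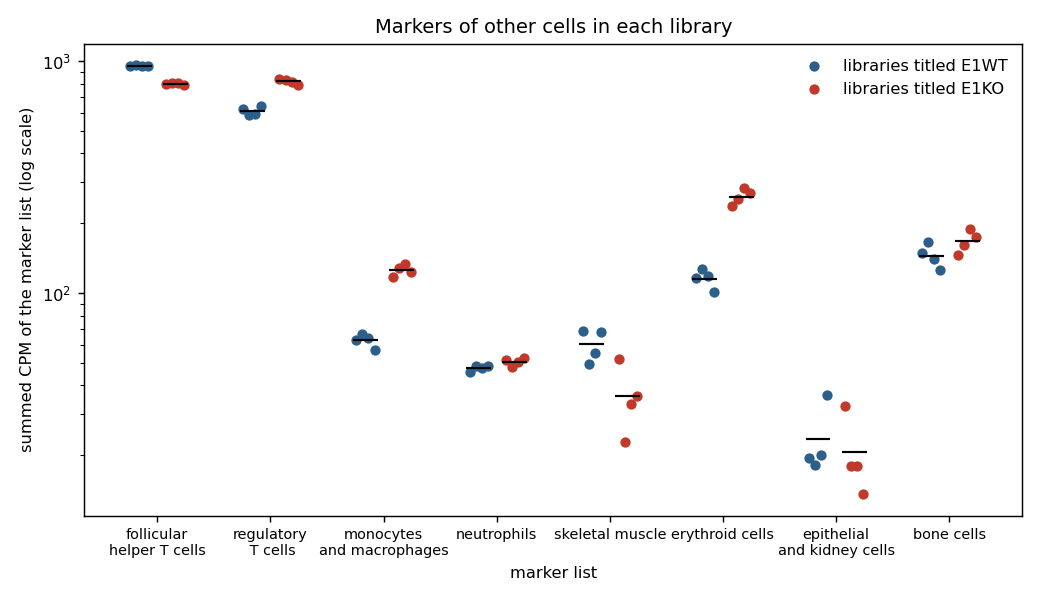
Summed CPM of marker lists for cells that the purified population could hold or that the members are known from, as points per library for each title (log scale). Skeletal muscle sums run from 22.8 to 51.8 CPM in E1KO and from 49.3 to 68.7 CPM in E1WT, and follicular helper sums from 788 to 806 and from 954 to 958 CPM.

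The cells carried the transcripts of CD4+ T cells in every library: naive CD4 markers summed to 6672 to 6909 CPM in E1KO and 7249 to 7427 CPM in E1WT, with none at 0. None of 19 marker lists passed the exact permutation test after adjustment over the lists (lowest adjusted p = 0.0543), and 10 lists were at the smallest p that 4 against 4 allows. Without E1KO 1, and likewise without E1KO 2, 11 lists passed. A list at the smallest p passes the adjustment only where enough other lists reach that p too. Passing or not is therefore no result of 1 list alone. Follicular helper markers, the T cell subset in which Sostdc1 is known, summed to 788 to 806 CPM in E1KO and 954 to 958 CPM in E1WT, a ratio of 0.835 (two-sided exact permutation p = 0.0286, adjusted 0.0543), and the sum was among those that passed without E1KO 1 (0.837) or E1KO 2 (0.833). Of 15 tested, 8 fell and 1 rose, and none was at 0. Among those that fell, Il21 was at 29.3%, Cxcr5 at 65.5%, Cd40lg at 69.6%, Btla at 72.9% and Slamf6 at 78.3% of the E1WT level. Btla and Slamf6, the most abundant of the list, weigh most in the sum. Sostdc1 fell to 5.05% and the follicular helper sum to 0.835 times the E1WT level. The part of these cells in the value of Sostdc1 was not tested.

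Skeletal muscle markers, the tissue of Tmod4, had sums of 36.0 ± 12.0 and 60.2 ± 9.56 CPM, a ratio of 0.597, with E1KO 1 inside the E1WT range (exact permutation p = 0.0571, adjusted 0.0987). Without E1KO 1 the ratio was 0.510 and the list passed. Of 14 tested, 0 rose and 3 fell in edgeR (0 and 5 at an unadjusted p under 0.05, and 0 and 2 in DESeq2), with none at 0. They were Mylpf, a fast myosin light chain (-0.87, edgeR adjusted p = 0.00017), Ttn, the giant sarcomere protein (-0.64, 0.021), and Myh4, a fast myosin heavy chain (-1.79, 0.025). The call of Ttn ended without E1KO 2 (edgeR adjusted p = 0.068) and that of Myh4 when E1KO 3 or 4, or E1WT 1 or 3 was left out (0.058 to 0.075). Tmod4 fell to 25.4% of the E1WT level in the same libraries, and in E1KO 1, the library with the highest muscle sum of its title, it stood at 1.09 CPM, the highest of its title by a small margin. The part of muscle transcripts in Tmod4 was not tested.

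Neutrophil markers, known beside the stefin A genes, summed to 47.9 to 52.3 and 45.6 to 48.4 CPM (ratio 1.06, exact permutation p = 0.0857, adjusted 0.125, passing without E1KO 2 at 1.08), with 1 of 12 higher and 3 lower and none at 0. Most of the sum came from Mpo and Elane. Mpo, the 1 that rose, was at 29.6 ± 1.92 in E1KO and 23.5 ± 1.41 CPM in E1WT (0.27, edgeR adjusted p = 0.032). Its call ended when E1KO 1 or 4, or E1WT 1 or 3 was left out (0.072 to 0.098). Elane was at 5.66 ± 0.203 and 5.30 ± 0.747 CPM and was not called. The 3 that fell were the granule genes Ngp (-0.89, edgeR adjusted p = 0.014), S100a8 (-0.78, 0.031) and Ltf (-1.07, 0.0497). The call of S100a8 ended when E1KO 2, 3 or 4, or any E1WT library was left out (adjusted p in edgeR: 0.057 to 0.078), and that of Ltf when E1KO 1, 2 or 3, or E1WT 1, 3 or 4 was left out (0.072 to 0.12). Bone cell markers, for Spp1, summed to 145 to 189 and 125 to 166 CPM (ratio 1.15, exact permutation p = 0.143, adjusted 0.194), with Bglap2, Dmp1 and Ibsp at 0 reads and 1 of 4 tested higher. Nearly all of this sum came from Acp5, at 142 ± 19.1 in E1KO and 126 ± 18.8 CPM in E1WT, and Runx2. Runx2, the 1 called higher, was at 23.2 ± 0.421 and 16.3 ± 1.57 CPM (edgeR adjusted p = 0.0040). The sum thus says little of the other bone markers. Epithelial and kidney markers, for Sostdc1 and Cd109, summed to 13.6 to 32.7 and 18.1 to 36.4 CPM (ratio 0.875, exact permutation p = 0.457, adjusted 0.483), with Umod and Lrp2 at 0 reads. E1WT 4 had the 36.4 CPM, above 18.1 to 20.1 CPM in the other E1WT libraries, and without it the ratio turned to 1.07. Of 6 tested edgeR called 0, with 1 lower at an unadjusted p under 0.05 and 1 lower in DESeq2. Monocyte and macrophage markers, another known source of Spp1, were 2.01 times as high in E1KO (exact permutation p = 0.0286, adjusted 0.0543, passing without E1KO 1 or E1KO 2). The list was mixed, with 6 of 12 higher and 1 lower, C1qb, whose levels are given above. The part of these cells in the value of Spp1 was not tested.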

How the data were processed

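The files the authors deposited give raw counts of reads for each symbol. The submitters' processing notes name TopHat2 2.1.0, HTSeq 0.9.1 and mm10. The labels' protocols give 50 ng of RNA, an NEBNext Ultra kit and 75-base paired-end reads on a HiSeq3000. Annotation and strand setting: not given in the sources used here. In each file 5 rows name no gene (28.2% to 37.0% of its counts) and were left out.

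CPM were scaled to the gene counts of a library, log2 folds by TMM as well. All genes were fitted with edgeR 4.0.16 (R 4.3.3; TMM, default filter with count minimum 10 and total minimum 15, quasi-likelihood test, Benjamini-Hochberg at 0.05), and 13333 of 24421 symbols passed the filter. Log2 CPM used a prior count of 2. Marker sums were compared by two-sided exact permutation over libraries, adjusted over 19 lists. Alternatives were DESeq2 1.42.0, its size factors, 2 other filters, TMM-scaled CPM, a prior count of 0.5, the replicate number as a block and each library left out. Leaving out E1KO 1 and E1WT 4 together was added after seeing the data. Scripts were tested on simulated data.

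The members and all gene lists were chosen with earlier results of these data known. Named are the members, Pcbp1, up to 4 called genes per related list (else the 2 of smallest p), neighbours, and the 2 genes most alike in profile (predicted gene models left out). For marker lists the rule was the 2 most abundant and up to 4 called. That rule was kept for the follicular helper, skeletal muscle, neutrophil and bone lists, and the other marker lists are given without all of these genes. Genes outside this, among them those called only under an alternative, were named after their values were seen. Positions are from GENCODE M21 (GRCm38, the assembly of mm10): 23376 symbols matched by name, 651 by synonym, 394 not. The longest transcript of each gene was used for composition, and promoters are RefSeq's on GRCm38.p6.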

Additional observations from a re-analysis of the deposited data

Results flagged for a closer look

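Of 60 groups of 4 libraries checked (levels of the 8 members and Pcbp1, 19 marker sums, and the shares of reads without a feature or a unique position, each within a title), 3 had a library whose gap to the nearest of the others passed Dixon's critical value of 0.829 of the range, where chance flags about 1 in 20. Fam196b stood at 6.34 CPM in E1WT 2, under the other E1WT libraries at 9.62 to 10.1 CPM. Cd109 stood at 3.91 CPM in E1WT 4, above the others at 2.76 to 2.82 CPM. The summed markers of epithelial and kidney cells were 36.4 CPM in E1WT 4 and 18.1 to 20.1 CPM in the other E1WT libraries.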

How the results depend on the processing

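The log2 folds of the 8 members stayed within 1 SD of the libraries under all alternatives run, from -4.59 to -4.00 for Sostdc1 and from -2.01 to -1.90 for Palm3. Stfa3 had the widest range relative to its size, -2.23 to -1.69. Counts over all genes (1623 higher, 1485 lower) were 1748 and 1792 with DESeq2, 1558 and 1558 with its size factors, 1526 and 1393 with no filter, 1600 and 1431 with the CPM filter, and 1557 and 1572 without both E1KO 1 and E1WT 4. Leaving out 1 library gave 1194 to 1659 higher and 1010 to 1566 lower.

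Same-numbered libraries did not deviate together (correlations of 0.014, -0.048, -0.035 and -0.099 for numbers 1 to 4, and no E1KO library was most like its own number). They share only a number. With the replicate number as a block 1151 genes were higher and 1005 lower, and in the lists the block left 1 gene of the BMP and Wnt antagonist list lower, 0 BMP genes higher, 2 TGF-beta genes higher, and 0 higher and 1 lower in the tropomodulin list.

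Small list counts moved elsewhere, and the cause was not tested. BMP genes called higher, 1 over all libraries, numbered 0 with no filter, 0 with the CPM filter, 2 with DESeq2 and 2 without both E1KO 1 and E1WT 4, and BMP genes called lower 5 with DESeq2. Without both libraries 1 antagonist-list, 1 osteopontin-related and 1 tropomodulin-list gene were lower. DESeq2 called 1 osteopontin-related gene lower and 2 of the tropomodulin list higher. With 1 library left out, antagonist-list genes lower ran from 1 to 2, BMP genes higher from 0 to 2, TGF-beta genes lower from 2 to 5, the alpha-2-macroglobulin list from 0 to 1 in each direction, osteopontin-related genes lower from 0 to 2, and the tropomodulin list from 0 to 1 in each direction.

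Ratios of marker sums turned for gamma-delta T cells (0.984, and 0.910 to 1.03 with 1 library left out, above 1 without E1KO 2, E1KO 4 or E1WT 1), for B cells (1.02, and 0.981 with TMM scaling) and for epithelial and kidney cells (0.875, and 0.703 to 1.07, the highest without E1WT 4). Without E1KO 1, and likewise without E1KO 2, 11 lists passed the adjusted test, since 3 against 4 libraries allow the same smallest p and more lists then reached it. Over all libraries left out in turn their ratios ran from 0.919 to 0.930 (naive CD4), 0.832 to 0.839 (follicular helper), 1.32 to 1.37 (regulatory), 1.31 to 1.39 (Th1), 1.48 to 1.57 (NK), 1.35 to 1.5 (plasma), 1.05 to 1.08 (neutrophils), 1.95 to 2.06 (monocytes), 1.41 to 1.55 (dendritic), 2.17 to 2.33 (erythroid), 1.05 to 1.07 (stromal) and 0.510 to 0.670 (skeletal muscle). Depth limits the lowest values: Sostdc1 had 2 reads in E1KO 2.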
